A study of Mus musculus with 13 samples.

Results

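The genes described here are 41 genes of the actin cytoskeleton and of contraction under serum response factor (SRF), listed by gene name, with no measured value in the rule. The list was nevertheless chosen with earlier results of these data known. They comprise 4 actins, SRF with 2 of its coactivators, 6 genes of actin monomer binding and filament turnover, 6 of myosin II and its kinase, 4 tropomyosins, 9 thin filament regulators and 9 LIM domain proteins. The files list 57010 genes, of which 15034 passed the filter on low counts, and all 41 passed it. RNA-Seq was done on mouse embryonic fibroblasts (MEFs) of wild-type mice in 4 groups: untreated control MEFs, MEFs made senescent with 2 µM of the topoisomerase inhibitor etoposide, and senescent MEFs given Fucoidan-FV, a sulfated sugar polymer from the seaweed Fucus vesiculosus, at 100 or 300 µg/mL. The study's methods give 24 h of etoposide, 5 days of recovery and 12 h of Fucoidan-FV. Each group has 1 culture from each of mice 4, 5 and 6 by the labels. The libraries 5(1) and 5(2) of control mouse 5 were summed. MEFs are a mixed culture from embryos, not a clone.

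Actin is held in cells as monomers and filaments. Cofilin, profilin, thymosins and cyclase-associated protein set how fast monomers enter and leave filaments, tropomyosins, calponins and transgelins coat the filaments, and myosin II, switched on by myosin light chain kinase, pulls on them. Monomeric actin binds the coactivators MRTF-A and MRTF-B (Mrtfa and Mrtfb) and keeps them from SRF, so that filament assembly turns on SRF targets, many of which encode actins and contractile proteins. SRF binds a DNA motif called the CArG box. In fibroblasts the contractile members of this program mark the myofibroblast state.

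The libraries held 22782536 to 31278750 estimated counts, and the 41 genes took 4.90% to 6.62% of the counts of the senescent libraries and 3.69% to 4.06% of those given Fucoidan-FV. All 10 fibroblast markers reached 1 TPM (the level of a gene's transcripts per length and depth) in some group, although Dcn and Lum were at 0.915 and 0.037 TPM in control MEFs. Of other types, the skeletal muscle factors Myod1, Myog and Myf5 and the endothelial genes Pecam1 and Cdh5 were at or under 0.54 TPM in every group mean, but some markers were not near 0. Acta1, the skeletal α-actin, was at 190, 150, 83.7 and 70.0 TPM in control, senescent, 100 and 300 µg/mL MEFs, desmin (Des) at 47.8 to 121 TPM, and cardiac Tnnt2 at 14.1 TPM in control and 2.15 to 6.26 in the others. The summed level of 7 endothelial markers was 0.83 to 1.28 TPM in control, 0.41 to 2.21 in senescent, 3.04 to 7.27 at 100 µg/mL and 2.12 to 4.07 at 300 µg/mL, with Tek at 0.15 TPM in senescent MEFs and 2.35 and 1.84 at the doses. The summed level of 9 macrophage markers was 0.26 to 4.86 TPM in control, 3.38 to 11.8 in senescent, 9.31 to 17.7 at 100 µg/mL and 4.61 to 14.1 at 300 µg/mL, and the part of these cell types in the results was not tested. Senescent mouse 6 stood apart: genes in the shortest of 5 classes of transcript length lay 0.73 above their mean over all samples there on the log2 scale, and those in the longest class 0.65 below, against −0.08 to 0.04 and 0.07 to 0.15 in the other senescent mice. Among genes whose exonic bases lie almost wholly (over 95%) in 1 transcript, the median deviation was lowest, −1.43, in control mouse 6 and highest, 1.13, in mouse 5 given 100 µg/mL. The libraries 5(1) and 5(2) of control mouse 5 were themselves at −1.13 and 0.61. Fits with offsets per library for this share were run as an alternative, and its part in the results was not otherwise tested.

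To show where SRF could bind, the promoters of the members were read from RefSeq (250 bases before to 50 after the start, build GRCm38.p6), and 37 of the 41 had an entry. The CArG box searched is CC, then 6 letters that are each A or T, then GG, which reads alike on both strands. It lay in a promoter of 7 of the 37 genes, which is 18.9%, against 1.81% of all 27025 genes with an entry, and in 1.63% of all 32851 promoters. Windows of 5 genes are printed 5′ to 3′ with the box in capitals, each ending before the transcription start of its RefSeq entry. Their positions come from an exact match to GRCm39. The Srf window, on the minus strand at chr17:46867101-46867210, holds a pair of boxes that start 82 and 62 bases before a RefSeq start of the gene that encodes the factor itself. The others are Actg1 (minus strand, chr11:120239362-120239451, box 90 bases before the start), Myl9 (plus strand, chr2:156617183-156617272, box at 161), Cnn2 (plus strand, chr10:79824338-79824427, box at 56) and Fhl1 (plus strand, chrX:55824901-55824990, box at 102). The Actg1, Myl9 and Fhl1 windows lie inside the GRCm39 bounds of their genes, and the Srf and Cnn2 windows reach into them. These starts are therefore not the outermost ones. For Fhl1 the bounds are chrX:55777147-55838706.
Srf: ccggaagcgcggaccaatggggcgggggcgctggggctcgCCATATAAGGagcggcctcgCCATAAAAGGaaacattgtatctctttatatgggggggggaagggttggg
Actg1: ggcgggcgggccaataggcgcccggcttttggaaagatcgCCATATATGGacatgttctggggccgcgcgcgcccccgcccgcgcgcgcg
Myl9: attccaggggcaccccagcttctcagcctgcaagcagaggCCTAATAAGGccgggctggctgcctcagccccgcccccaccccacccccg
Cnn2: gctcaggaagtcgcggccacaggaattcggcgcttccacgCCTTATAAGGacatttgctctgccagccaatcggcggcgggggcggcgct
Fhl1: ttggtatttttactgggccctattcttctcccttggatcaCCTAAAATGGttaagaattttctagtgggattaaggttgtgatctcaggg
Myl6 held a box 50 bases before one of its starts. Fhl2 held a box 31 bases before one of its starts and a box 96 bases before another. With 1 mismatch allowed, 17 of 37 members (45.9%) and 23.8% of all genes held a match. Boxes farther upstream or within introns lie outside these windows.

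Summed over the 41 genes they held 65900 to 71459 TPM in control MEFs, 64502 to 75107 in senescent MEFs, 52891 to 58013 at 100 µg/mL and 53415 to 57897 at 300 µg/mL. The treated mice lay below all control and senescent mice on this scale. In control MEFs the cytoplasmic actins led, with Actb at 8648 ± 536 TPM and Actg1 at 8321 ± 362 (SD, n = 3), a difference within their spread, followed by Acta2, the α-actin of smooth muscle and myofibroblasts, at 6369 ± 925. The least abundant members were Synpo2 at 9.28 ± 1.85 TPM and Mrtfb at 8.28 ± 1.31, which did not differ beyond their spread. Srf was at 74.6 ± 19.1 TPM and Mrtfa at 58.0 ± 5.13.

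The plot of TPM by actin gene gives these levels for each group.

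**Figure D1:**
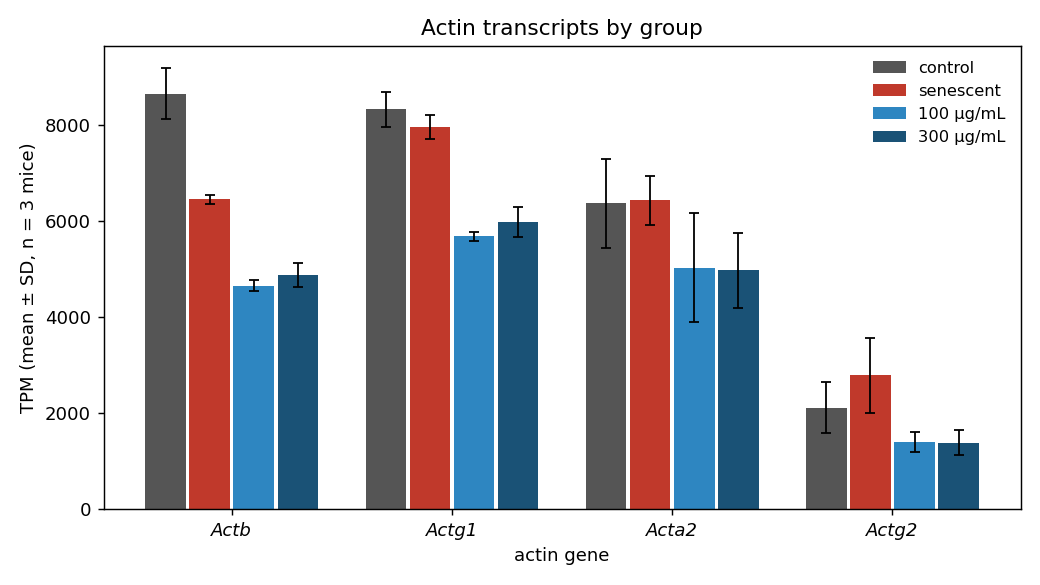
Level of the 4 actin genes in TPM, as bars of the mean with SD over 3 mice in each of the 4 groups. The mean of Actb is 8648 TPM in control and 6447 in senescent MEFs, and those of the treated groups are 4653 and 4879 TPM.

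Between senescent and control MEFs 3 of the 41 members were called in the main fit, and 12 without senescent mouse 6. Mylk, which encodes myosin light chain kinase, and Synpo2, a partner of α-actinin and filamin in actin bundles, rose, and Tagln2, the transgelin found outside smooth muscle, fell. These were 2 members called as risen and 1 as fallen at an adjusted p under 0.05 by edgeR's quasi-likelihood test, where 6.11% of all genes rose and 5.63% fell. The median log2 fold change was 0.07 over the members and 0.07 over all genes tested.

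Mylk stood at 60.9, 67.6 and 47.3 CPM (counts scaled to the depth of the library with TMM factors) in control mice 4, 5 and 6 and at 131, 166 and 78.5 in the senescent mice. Synpo2 was at 47.7, 71.0 and 64.1 CPM in control and at 110, 210 and 86.4 in senescent MEFs. For both genes every senescent mouse was above every control mouse, as it was for 14.2% of all genes. Mylk rose by 1.09 on the log2 scale (SE 0.25, adjusted p = 0.0125) and Synpo2 by 1.15 (SE 0.29, adjusted p = 0.0207). Over 22 alternatives Mylk was called in 16 and Synpo2 in 17, with log2 fold changes from 0.86 to 1.34 and from 0.70 to 1.39. Neither was called in a fit of only these groups, on the TPM scale, without control mouse 4 or without senescent mouse 5.

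Tagln2 was at 774, 724 and 603 CPM in control MEFs and at 179, 187 and 386 in senescent MEFs. Each senescent mouse was below every control mouse, as it was for 12.9% of all genes. Tagln2 fell by 1.48 on the log2 scale (SE 0.27, adjusted p = 0.00341), a call that held in all 22 alternatives. Tpm2, a tropomyosin of contractile filaments, was 0.70 higher (SE 0.22, adjusted p = 0.0521) and Actb 0.48 lower (SE 0.17, adjusted p = 0.0943), and neither passed. Acta2, Tagln and Cnn1, the textbook myofibroblast genes, stood within 0.18 of 0 with adjusted p from 0.765 to 1. Without senescent mouse 6 the comparison called 12 members, 4 up and 8 down, where 9.19% of all genes rose and 8.14% fell in that fit, among them Actb, Pfn1, Tpm3 and Fhl3 as lower.

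Treatment of senescent MEFs with Fucoidan-FV went with lower levels of the program at both doses. At 100 µg/mL, 18 of the 41 members fell and none rose, where 2.89% of all genes fell and 1.14% rose. At 300 µg/mL, 9 fell and none rose, where 1.12% of all genes fell and 0.778% rose, and all 9 were among the 18. The median log2 fold change over the members was −0.73 at 100 and −0.61 at 300 µg/mL, against −0.02 and 0 over all genes tested, and 33 and 35 of the 41 values were negative. Every treated mouse was below every senescent mouse for 26 members at 100 and 25 at 300 µg/mL, and for 15% and 10.2% of all genes. Lower levels in bulk RNA can come from fewer cells of a type or from less RNA per cell, which cannot be told apart. On the TPM scale the median of all genes was 0.32 at 100 and 0.25 at 300 µg/mL, and that of the members −0.31 and −0.29, so the gap between members and all genes was alike, but 2 members then counted as risen at each dose and 8 and 7 as fallen, where 2.38% of all genes rose and 0.852% fell at 100 µg/mL and 2.26% rose and 0.709% fell at 300 µg/mL. DESeq2 called 23 members as fallen at 100 and 18 at 300 µg/mL, where 2.8% and 1.95% of all genes fell. The comparisons of the doses share the same senescent libraries.

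**Figure D2:**
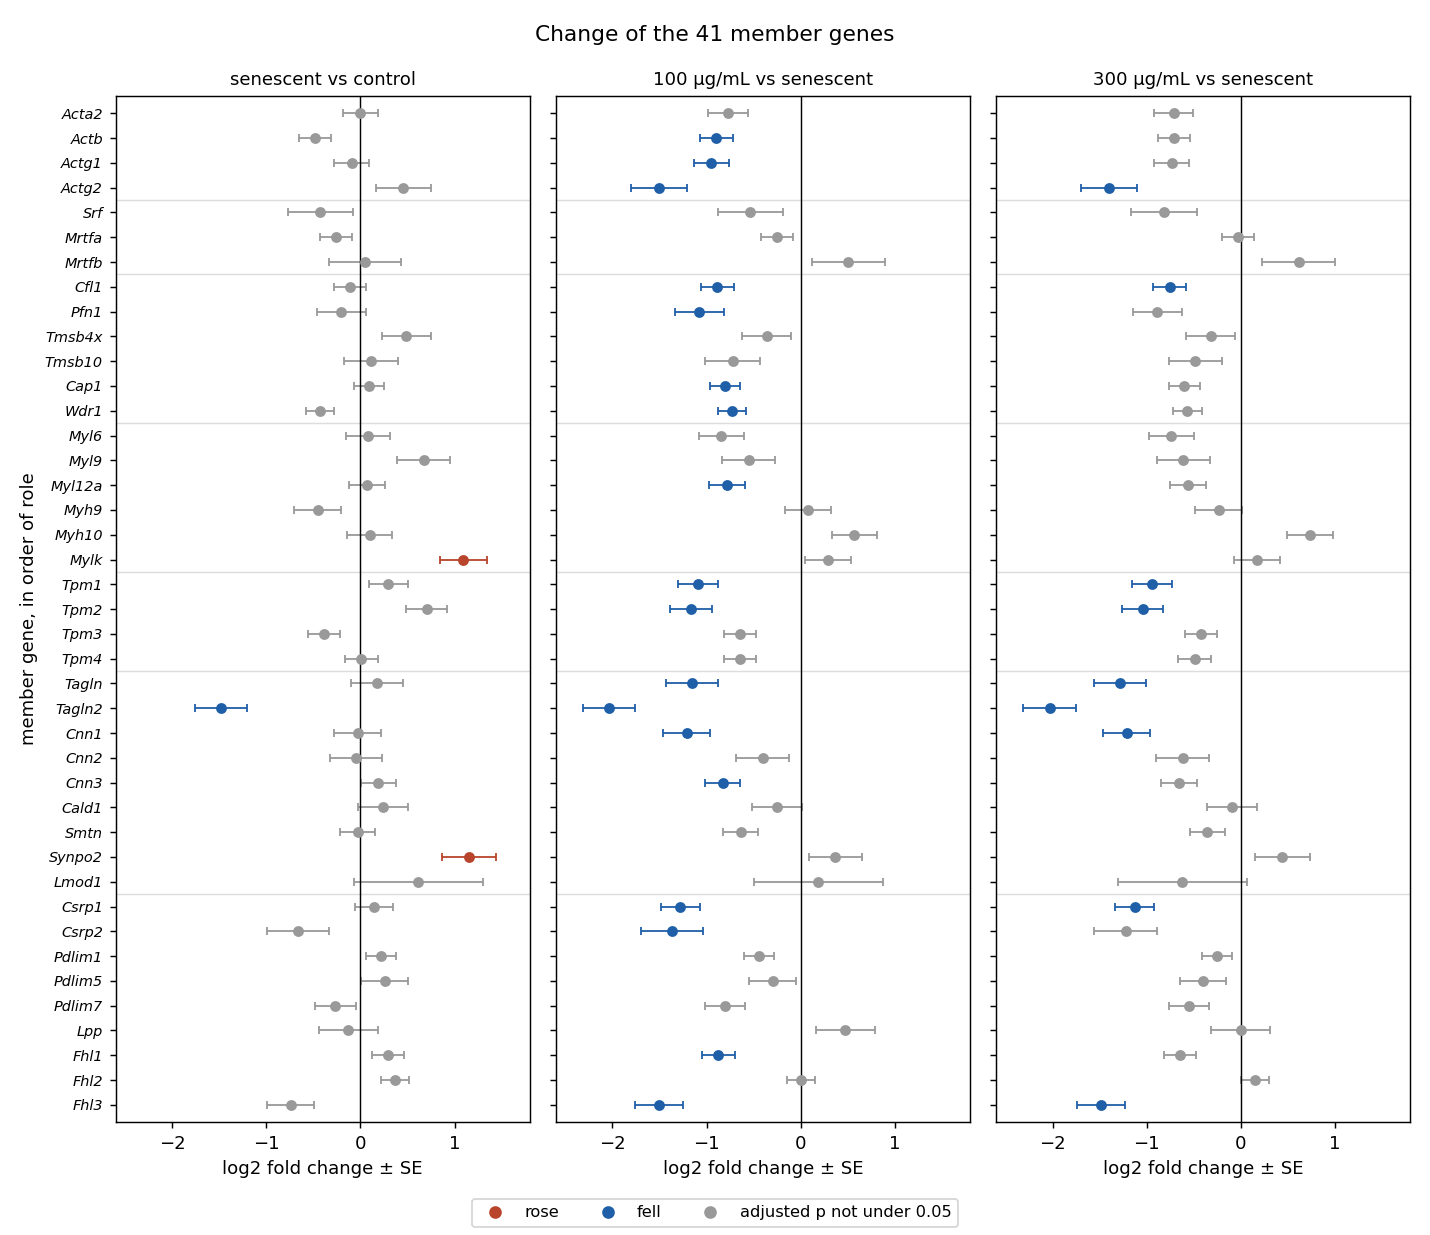
Log2 fold change with its SE for each of the 41 members, in order of role with lines between roles. The panels compare senescent with control MEFs and either dose of Fucoidan-FV with senescent MEFs. Of the points in the 2 treated panels, 18 at 100 µg/mL and 9 at 300 µg/mL are coloured as fallen and none as risen.

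These counts depend on the libraries. In a fit of only the pair of groups compared, 1 member remained called at each dose, Tagln2, where 0.535% and 0.321% of all genes fell. At 100 µg/mL, leaving out senescent mouse 6, senescent mouse 5, treated mouse 4 or treated mouse 5 gave 11, 6, 3 and 5 fallen members, where 1.41%, 0.938%, 0.556% and 0.638% of all genes fell. At 300 µg/mL, leaving out senescent mouse 5 gave 3 fallen and 1 risen, where 0.733% of all genes fell and 0.617% rose. Leaving out treated mouse 4, 5 or 6 gave 3, 2 and 1 fallen, where 0.678%, 0.405% and 0.18% of all genes fell. Without senescent mouse 6, 10 of the 18 and 4 of the 9 calls were kept and the members' medians were −0.41 and −0.35, while those of all genes were 0.14 and 0.08.

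Most members have short transcripts, and against the senescent group, which includes mouse 6, the median of all genes differed by class of transcript length. In the class of genes with the shortest transcripts, of 108 to 2095 bases, the median of all genes was −0.33 at 100 µg/mL, and that of its 10 members was −1.03. In the next class, up to 3117 bases, the medians were −0.11 and −0.84 over 15 members. In the class with the longest transcripts, from 5750 bases, all genes were at 0.23 and the 6 members at 0.42. With offsets per library for transcript length the counts were 13 fallen at 100 and 7 at 300 µg/mL, where 2.36% and 1.22% of all genes fell. By library, the shortest class lay at 0.73 in senescent mouse 6, at 0.04 and −0.08 in senescent mice 4 and 5, and at −0.22 to 0.01 in treated mice. The longest class lay at −0.65, at 0.07 and 0.15, and at 0.07 to 0.22. The part of transcript length in each member's change was not otherwise tested.

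**Figure D3:**
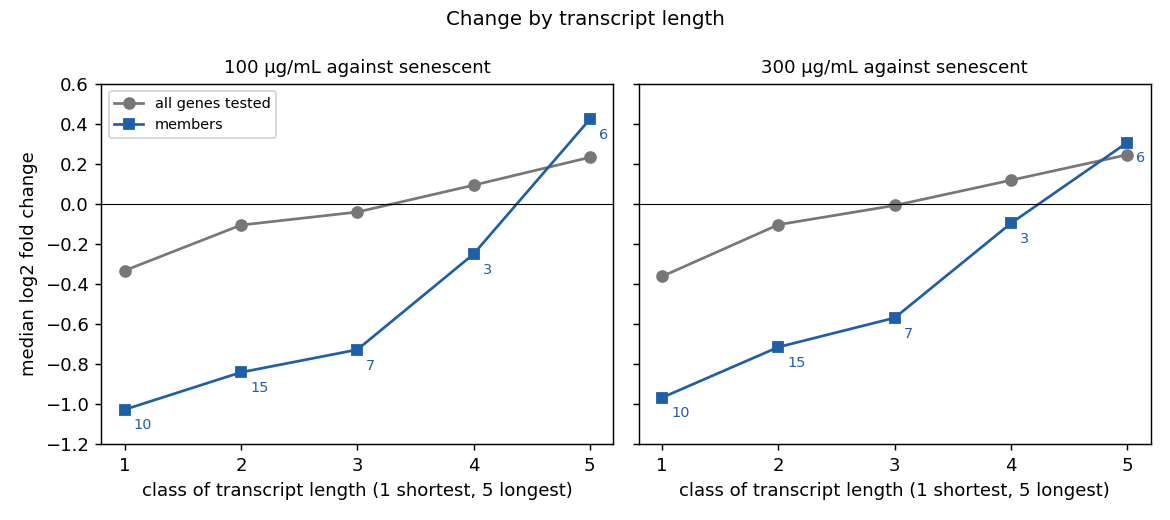
Median log2 fold change against senescent MEFs in 5 equal classes of all genes by transcript length, for all genes tested and for the members, whose number stands beside each point. In the shortest class the members lie at −1.03 and −0.97 at the 2 doses, below all genes at −0.33 and −0.36, and in the longest they lie at 0.42 and 0.31. The senescent group includes mouse 6, which stood apart by transcript length.

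Of the actins, 3 of 4 fell at 100 µg/mL and 1 at 300 µg/mL. Actg2, the γ-actin of smooth muscle, was at 1209, 2242 and 3118 CPM in senescent mice 4, 5 and 6, at 645, 852 and 822 at 100 µg/mL and at 810, 911 and 766 at 300 µg/mL. It fell by 1.5 (SE 0.30, adjusted p = 0.0159) and by 1.40 (SE 0.30, adjusted p = 0.0297) on the log2 scale, and every treated mouse was below every senescent mouse. Without senescent mouse 6, its highest library, the changes were −1.0 and −0.99 with adjusted p of 0.0821 and 0.0987.

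Actb, the β-actin of all non-muscle cells, was at 7306, 7662 and 6821 CPM in control, 4375, 5155 and 6059 in senescent, 2665, 2656 and 3050 at 100 µg/mL and 3453, 3010 and 3069 at 300 µg/mL. Its levels stepped down from control to senescent to treated MEFs with no overlap. Actg1, the cytoplasmic γ-actin, was at 10431, 11110 and 10213 CPM in control, 8264, 9753 and 11770 in senescent, 4766, 4818 and 5842 at 100 µg/mL and 6677, 5550 and 5664 at 300 µg/mL. At the lower dose Actb fell by 0.90 (SE 0.18, adjusted p = 0.0149) and Actg1 by 0.95 (SE 0.19, adjusted p = 0.0159). At the higher dose the values were −0.71 and −0.74 with adjusted p of 0.0576 and 0.0660.

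Acta2 was at 4522, 5374 and 3907 CPM in control, 3639, 4623 and 5543 in senescent, 2777, 3121 and 2186 at 100 µg/mL and 2684, 3089 and 2636 at 300 µg/mL. All treated mice lay below all senescent mice, but −0.77 at 100 µg/mL (SE 0.21, adjusted p = 0.0563) and −0.72 at 300 µg/mL (SE 0.21, adjusted p = 0.106) did not pass. Acta2 was called as fallen in 7 of 19 alternatives at 100 µg/mL and in 2 at 300 µg/mL, by DESeq2 with adjusted p of 0.0333 and 0.0362, and its adjusted p ranged from 0.0198 to 0.360 and from 0.0362 to 0.350. As a share of the summed TPM of the 4 actins, Actb went from 34.0% ± 1.47 in control to 27.4% ± 1.57 in senescent MEFs (SD, n = 3), and 27.9% and 28.4% at the doses. Actg2 held 8.28% ± 1.77 in control, 11.7% ± 2.65 in senescent and 8.35% ± 1.01 and 8.02% ± 0.78 in treated MEFs, and the ranges of senescent and treated MEFs overlap at both doses. Actin genes share near-identical coding sequence and have processed copies, so RSEM divides some of their reads by estimate.

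SRF and its coactivators did not pass against senescent MEFs at either dose. Srf was at 67.7, 60.4 and 28.7 CPM in control, 36.6, 29.5 and 50.6 in senescent, 30.6, 32.9 and 17.1 at 100 µg/mL and 16.6, 25 and 24.5 at 300 µg/mL. Its log2 fold changes against senescent were −0.53 (SE 0.35, adjusted p = 0.434) and −0.82 (SE 0.35, adjusted p = 0.277). Srf was called as fallen in 3 of 19 alternatives at each dose, and with offsets for 1-transcript share, length and GC it stood at −0.90 (adjusted p = 0.00437) and −0.78 (adjusted p = 0.0108). Mrtfa was at 165, 169 and 145 CPM in senescent MEFs, 129, 130 and 145 at 100 µg/mL and 194, 141 and 134 at 300 µg/mL, with control at 200, 186 and 186. Mrtfb was at 59.2, 51.3 and 12.8 CPM in senescent mice, 57.4, 55.5 and 62.2 at 100 µg/mL and 68.2, 61.2 and 59.3 at 300 µg/mL, with control at 44.5, 37.3 and 37.9. The low Mrtfb value belongs to senescent mouse 6, and the 95% interval of its change at 100 µg/mL ran from −0.32 to 1.33. Srf also differed between the libraries of control mouse 5, at 41.4 CPM in 5(1) and 73.9 in 5(2).

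Of the genes for actin monomers and turnover, 4 of 6 fell at 100 µg/mL and 1 at 300 µg/mL. Cfl1 encodes cofilin, which severs filaments, and Wdr1 its cofactor, Pfn1 encodes profilin, which loads monomers onto growing ends, and Cap1 recycles monomers from cofilin. At 100 µg/mL Cfl1 fell by 0.89 (SE 0.17, adjusted p = 0.0153), Pfn1 by 1.08 (adjusted p = 0.0393), Cap1 by 0.80 (adjusted p = 0.0173) and Wdr1 by 0.73 (adjusted p = 0.0199). Cfl1 was at 1209, 1368 and 1748 CPM in senescent mice, 771, 761 and 810 at 100 µg/mL and 960, 781 and 820 at 300 µg/mL, with no overlap. At the higher dose it fell by 0.76 (SE 0.17, adjusted p = 0.0424), and with the mouse as a block the adjusted p was 0.0783. Pfn1 was at 586 and 591 CPM in senescent mice 4 and 5 but at 1298 in mouse 6, against 361 to 408 at 100 µg/mL. Its change without that mouse was −0.43 (adjusted p = 0.116), and with the mouse as a block −1.02 (adjusted p = 0.0669). The thymosins Tmsb4x and Tmsb10, which hold actin as monomers, did not pass at either dose, with Tmsb4x at −0.36 and −0.32 in CPM and at 5470, 5963 and 5616 TPM in senescent, 100 and 300 µg/mL MEFs.

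Few genes of myosin II were called. Myl12a, a regulatory light chain, fell at 100 µg/mL by 0.79 (SE 0.19, adjusted p = 0.0402), from 880, 1093 and 1379 CPM to 606, 607 and 732 (−0.46 with adjusted p = 0.0802 without senescent mouse 6), and none of the 6 genes was called at 300 µg/mL. Myl12a is nearly identical to Myl12b, so the split of their reads is uncertain. Myl6, the essential light chain, was lower by 0.84 and 0.74 in all treated mice without passing (adjusted p = 0.0626 and 0.135). Myl9, the regulatory light chain of smooth muscle, was at 639, 738 and 462 CPM in control, 706, 718 and 1500 in senescent, 666, 781 and 550 at 100 µg/mL and 568, 700 and 645 at 300 µg/mL. Senescent mouse 6 alone stood high, and the changes of −0.55 and −0.61 had adjusted p of 0.305 and 0.323.

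The heavy chains had other values. Myh10, non-muscle myosin IIB, was at 738, 936 and 448 CPM in senescent mice, 945, 902 and 1300 at 100 µg/mL and 1312, 1087 and 1131 at 300 µg/mL, with log2 fold changes of 0.57 (adjusted p = 0.207) and 0.73 (adjusted p = 0.147). In TPM, Myh10 was higher in treated MEFs, at 179 ± 26.5 in senescent MEFs and 296 ± 15.3 and 310 ± 9.87 at the doses (SD, n = 3). The log2 medians of all genes were also higher on that scale, by 0.32 and 0.25. Myh9, myosin IIA, stood at 0.08 and −0.24 with adjusted p of 0.904 and 0.730. With offsets for 1-transcript share, length and GC it stood at −0.68 and −0.60 with adjusted p of 0.00963 and 0.0200, so its direction at 100 µg/mL turned, and it was called as fallen in 2 of 19 alternatives at each dose. It differed by 1.04 on the log2 scale between the libraries of control mouse 5, more than between any groups. Mylk stayed at 142, 175 and 142 CPM at 100 µg/mL and 138, 160 and 124 at 300 µg/mL, changes of 0.29 and 0.17 from senescent MEFs that did not pass.

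Of the tropomyosins, Tpm1 and Tpm2, which hold the isoforms of muscle and stress fibers, fell at both doses, and Tpm3 and Tpm4 did not pass. Tpm2 was at 1057, 1152 and 1149 CPM in control, 1279, 1670 and 2525 in senescent, 786, 884 and 768 at 100 µg/mL and 952, 912 and 791 at 300 µg/mL. All treated mice lay below both other groups. It fell by 1.17 (SE 0.22, adjusted p = 0.0123) and 1.04 (SE 0.22, adjusted p = 0.0288), and with the mouse as a block the adjusted p at 300 µg/mL was 0.0555. Tpm1 was at 3546, 4564 and 5708 CPM in control, 4492, 6206 and 6253 in senescent, 2284, 2750 and 2938 at 100 µg/mL and 2996, 3008 and 2806 at 300 µg/mL. It fell by 1.09 (SE 0.21, adjusted p = 0.0147) and 0.94 (SE 0.21, adjusted p = 0.0368). Without senescent mouse 6 the adjusted p of Tpm1 was 0.0510 and 0.0792, and that of Tpm2 0.0448 and 0.0577. Tpm3 and Tpm4 were 0.64 lower each at 100 µg/mL, with adjusted p of 0.0523 and 0.0537 and no overlap between the groups.

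The thin filament regulators held the largest change among the 41 genes. Tagln2 went from 179, 187 and 386 CPM in senescent MEFs to 66.8, 65.4 and 51.2 at 100 µg/mL and 68.4, 64.5 and 51.1 at 300 µg/mL, further below the control level. It fell by 2.04 (SE 0.28, adjusted p = 0.00294) and 2.03 (SE 0.28, adjusted p = 0.00379), a fold of 4.10 and 4.09. The gene (ENSMUSG00000026547, plus strand of chr1:172327426-172334947 in GRCm39) was called at both doses in all 19 alternatives, with log2 fold changes from −2.11 to −1.42 at 100 and −2.15 to −1.53 at 300 µg/mL. Its groups did not overlap at any step from control to senescent to treated MEFs.

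Tagln, or transgelin, and Cnn1, calponin 1, bind filaments of smooth muscle cells and myofibroblasts. Tagln was at 2143, 2397 and 1764 CPM in control, 1657, 2037 and 3423 in senescent, 1116, 1301 and 777 at 100 µg/mL and 855, 1185 and 883 at 300 µg/mL. It fell by 1.16 (SE 0.28, adjusted p = 0.0384) and 1.28 (SE 0.28, adjusted p = 0.0328). With the mouse as a block the adjusted p was 0.0585 and 0.0544, and without senescent mouse 6 it was 0.300 and 0.157. Cnn1 was at 717, 936 and 730 CPM in control, 566, 740 and 1026 in senescent, 353, 404 and 251 at 100 µg/mL and 346, 395 and 264 at 300 µg/mL. It fell by 1.21 (SE 0.25, adjusted p = 0.0196) and 1.22 (SE 0.25, adjusted p = 0.0269), and in each of these genes every treated mouse was below every senescent and control mouse. Without senescent mouse 6 the Cnn1 changes were −0.79 and −0.91 with adjusted p of 0.174 and 0.130.

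Cnn3, the calponin of non-muscle cells, fell at 100 µg/mL by 0.83 (adjusted p = 0.0306, and 0.0516 without senescent mouse 6) and stood at −0.66 at 300 µg/mL (adjusted p = 0.101). Cnn2, Cald1 (caldesmon), Smtn (smoothelin) and Lmod1 (leiomodin) did not pass at either dose, with log2 fold changes from −0.64 to 0.19. Lmod1 has all of its exonic bases in 1 transcript, and its value in library 5(2) of control mouse 5 was 87.7 CPM against 15.7 in library 5(1), a gap wider than any difference between its groups. Synpo2 was at 144, 175 and 206 CPM at 100 µg/mL and 184, 206 and 162 at 300 µg/mL and did not differ from senescent MEFs beyond the spread (0.37 and 0.44).

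**Figure D4:**
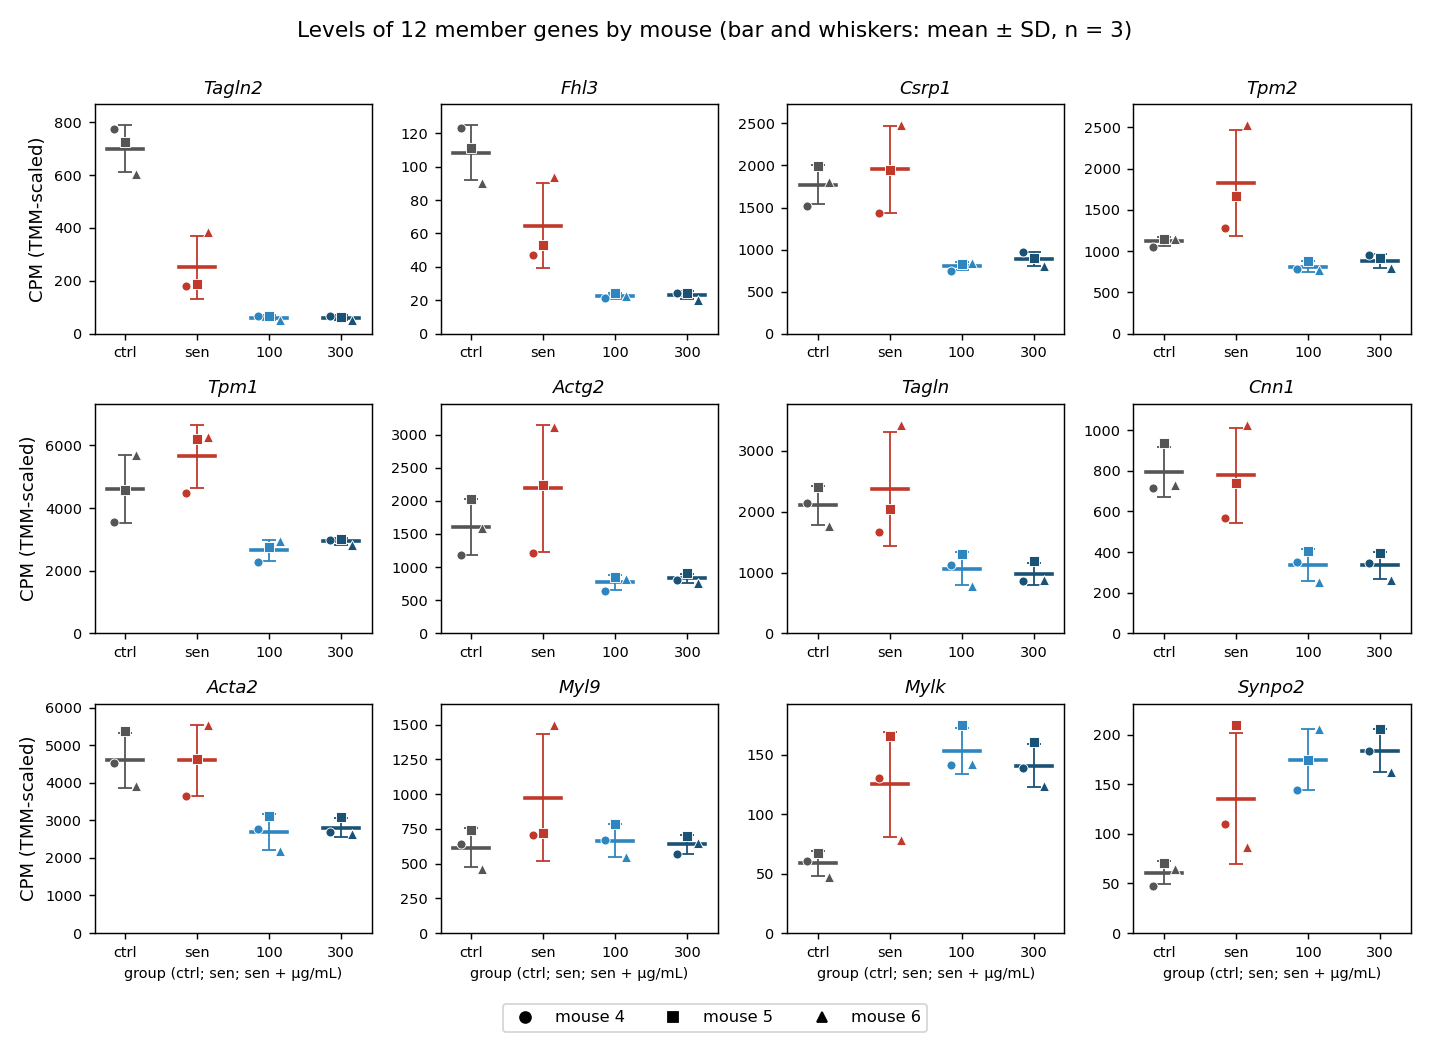
CPM of 12 members in each mouse (symbols) with the group mean and SD, for control (ctrl), senescent (sen) and senescent MEFs given 100 or 300 µg/mL Fucoidan-FV. For Tagln2, Fhl3, Csrp1, Tpm2, Tpm1, Actg2, Tagln, Cnn1 and Acta2 the treated mice lie below every senescent mouse. Of all genes, 15% at 100 and 10.2% at 300 µg/mL lay so. Mylk and Synpo2 lie above control in all 3 other groups, where each group alone lay above control for 14.2%, 24.2% and 22.2% of all genes.

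Among the LIM domain proteins, 4 of 9 fell at 100 µg/mL and 2 at 300 µg/mL. Csrp1 (ENSMUSG00000026421, plus strand of chr1:135647492-135679976), a cysteine-rich protein that bundles actin with α-actinin, was at 1522, 1988 and 1802 CPM in control, 1435, 1946 and 2477 in senescent, 751, 829 and 838 at 100 µg/mL and 970, 900 and 806 at 300 µg/mL. Its treated mice lay below all others, and it fell by 1.28 (SE 0.20, adjusted p = 0.00636) and 1.13 (SE 0.20, adjusted p = 0.0140). The call held at 100 µg/mL in 18 of 19 alternatives and at 300 µg/mL in 14 of 19. Csrp2, its relative in smooth muscle, was at 88.3, 130 and 273 CPM in senescent mice, and at 54.5, 64.7 and 71.4 at 100 µg/mL, where it fell by 1.37 (SE 0.33, adjusted p = 0.0407). Without senescent mouse 6 its change was −0.63 (adjusted p = 0.181). At 300 µg/mL it stood at −1.22 (adjusted p = 0.0845).

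The LIM-only proteins of the Fhl family had unlike values. Fhl3 (ENSMUSG00000032643, plus strand of chr4:124594172-124602419) was at 123, 111 and 90.5 CPM in control, 47.0, 53.4 and 93.9 in senescent, 21.1, 24.7 and 22.7 at 100 µg/mL and 24.5, 24.6 and 20.2 at 300 µg/mL, where the highest senescent mouse lay within the control range. It fell by 1.5 (SE 0.25, adjusted p = 0.00792) and 1.49 (SE 0.25, adjusted p = 0.0103). Fhl1 fell by 0.87 at 100 µg/mL (SE 0.17, adjusted p = 0.0156), from 1417, 1794 and 1444 CPM to 836, 851 and 855, and stood at −0.65 at 300 µg/mL (adjusted p = 0.0776). Fhl2, itself an SRF target, stood at 0.01 and 0.15 with adjusted p of 0.989 and 0.718. Its 95% interval at 100 µg/mL on the count scale, from −0.31 to 0.32, leaves out the size of change of Fhl1 and Fhl3. In TPM, Fhl2 was higher, at 342 ± 31.9 in senescent MEFs and 465 ± 18.1 and 465 ± 3.10 at the doses (SD, n = 3). The log2 medians of all genes were also higher on that scale, by 0.32 and 0.25. Pdlim1, Pdlim5, Pdlim7 and Lpp, which tether actin at adhesions and Z-lines, did not pass, with Pdlim7 at −0.81 (adjusted p = 0.0546) and Lpp at 0.48 (adjusted p = 0.439) at 100 µg/mL.

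Of the 7 genes with an exact CArG box near a start, shown above in part, Actg1 and Fhl1 fell at 100 µg/mL, and Srf, Myl6, Myl9, Cnn2 and Fhl2 did not pass. Of the 30 with an entry and no such box, 12 fell. At 300 µg/mL the counts were 0 of 7 and 7 of 30. The 4 members without an entry, Actb, Actg2, Tagln and Csrp2, are in neither count. All of them fell at 100 µg/mL, and Actg2 and Tagln fell at 300 µg/mL. The counts therefore do not show whether members with a box fell less often. Tagln2, Fhl3 and Csrp1 had an entry without the exact letters, which says nothing on boxes elsewhere.

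No member was called between the doses. Between 300 and 100 µg/mL, 0 of 41 members were called by edgeR or DESeq2 and 0 had an unadjusted p under 0.05, where 0% of all genes rose and 0.00665% fell, and 94 genes had an unadjusted p under 0.05. The median log2 fold change was 0.14 over the members and 0.08 over all genes. For Tagln2 the difference was 0.01 with a 95% interval from −0.57 to 0.58, for Csrp1 0.15 (−0.29 to 0.58) and for Acta2 0.06 (−0.39 to 0.51). These intervals do not show that the doses act alike, and the members called at 100 but not at 300 µg/mL are not shown to differ between them.

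Set against control MEFs, the treated senescent MEFs had lower levels of many members. At 100 µg/mL, 24 members fell and 2 rose, where 14.4% of all genes fell and 12.2% rose. At 300 µg/mL, 18 fell and 4 rose, where 12% of all genes fell and 12.4% rose. The medians over the members were −0.66 and −0.51, against 0.09 and 0.07 over all genes tested. Every treated mouse was below every control mouse for 26 and 25 members, and for 24.1% and 21.1% of all genes. All 4 actins fell at both doses, Actb the most, by 1.38 (SE 0.18, adjusted p = 0.00012) and 1.19 (SE 0.18, adjusted p = 0.00035). Tagln2 fell by 3.52 (SE 0.30) and 3.51 (SE 0.30), with adjusted p of 7.25e-06 and 8.3e-06, 11.5-fold and 11.4-fold below control.

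Fhl3 fell by 2.25 and 2.23, Csrp2 by 2.03 and 1.89, Wdr1 by 1.16 and 1.00, Csrp1 by 1.14 and 0.99 and Cnn1 by 1.24 and 1.25 (adjusted p from 5.68e-05 to 0.00323). Pfn1, Cfl1, Cap1, Tpm1, Tpm3, Tagln and Pdlim7 also fell at both doses, and Myl6, Myl12a, Tpm4, Cnn3, Smtn and Fhl1 at 100 µg/mL. Tpm2, which had stood above control in senescent MEFs, was at −0.46 and −0.34 and did not pass. Srf fell at 300 µg/mL by 1.25 (SE 0.35, adjusted p = 0.0202) and stood at −0.96 at 100 µg/mL (adjusted p = 0.0583), and Mrtfa fell at 100 µg/mL by 0.50 (adjusted p = 0.0429, and 0.0589 with the mouse as a block).

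Mylk and Synpo2 went the other way. Mylk rose by 1.38 (SE 0.25, adjusted p = 0.00137) and 1.26 (SE 0.25, adjusted p = 0.00262), and Synpo2 by 1.52 (SE 0.29, adjusted p = 0.00199) and 1.59 (SE 0.29, adjusted p = 0.00161). At 300 µg/mL Myh10 rose by 0.83 (SE 0.24, adjusted p = 0.0224) and Fhl2 by 0.51 (SE 0.15, adjusted p = 0.0225), in 3 of 3 mice each. With the mouse as a block, Cap1 at 300 µg/mL lost its call (adjusted p = 0.0567) and Myh9 was called as fallen (adjusted p = 0.0443).

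In other genes of actin and SRF biology the counts can be read against the shares of all genes, 2.89% fallen and 1.14% risen at 100 µg/mL and 1.12% and 0.778% at 300 µg/mL. Of 22 other targets of MRTF and SRF, 4 fell and 1 rose at 100 µg/mL and 3 fell and 1 rose at 300 µg/mL, with medians of −0.27 and −0.35. Ankrd1, a stretch-responsive ankyrin repeat protein, was at 381, 742 and 754 CPM in senescent mice, 107, 144 and 138 at 100 µg/mL and 163, 157 and 136 at 300 µg/mL. It fell by 2.27 (SE 0.28, adjusted p = 0.00155) and 2.04 (SE 0.28, adjusted p = 0.00379). Itga5, the fibronectin receptor subunit, fell by 2.05 and 1.88 (adjusted p = 0.000442 and 0.000955), and Ablim1, an actin-binding LIM protein, rose by 1.58 and 1.59 (adjusted p = 0.0248 and 0.0332).

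Of 18 genes of the Arp2/3 complex, which nucleates branched filaments, and its activators, 5 fell at 100 µg/mL and 2 at 300 µg/mL, with Arpc5 at −1.10 and −0.93 and Arpc1b at −1.14 and −0.91. Capping and severing proteins had 3 and 1 of 21 fallen, led by Capg (1.70 and 1.54), crosslinkers 3 and 1 of 21, led by Fscn1 (1.16 and 1.02), and formins with Ena/VASP and related proteins 1 of 16 at each dose, the formin Inf2 (0.87 and 0.75). The medians of these 4 lists lay between −0.34 and −0.14 at the doses.

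Smooth muscle genes outside the members had other values. Of 11 tested, 1 fell at each dose, Npnt, a matrix ligand of integrin α8, by 2.13 and 1.82 (adjusted p = 0.0041 and 0.0103), and the medians were 0.23 and 0.03. Itga8, integrin α8, rose with senescence by 2.33 (adjusted p = 0.0112), from 13.8, 10.9 and 11.5 CPM to 77.5, 91.4 and 13.3, where senescent mouse 6 lay within the control range, and did not pass at the doses against senescent MEFs (0.56 and 0.88). Myh11, the smooth muscle myosin heavy chain, rose with senescence by 1.43 (SE 0.28, adjusted p = 0.00488), from 92.4, 106 and 80.8 CPM to 238, 360 and 155. It stood at 303, 315 and 267 CPM at 100 µg/mL and 397, 361 and 233 at 300 µg/mL, changes of 0.23 and 0.40 that did not pass. The summed TPM of 7 smooth muscle markers was 43.5 to 89.9 in control, 150 to 218 in senescent, 169 to 200 at 100 µg/mL and 145 to 197 at 300 µg/mL, while Myocd was at 1.06 to 2.98 TPM in the group means.

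**Figure D5:**
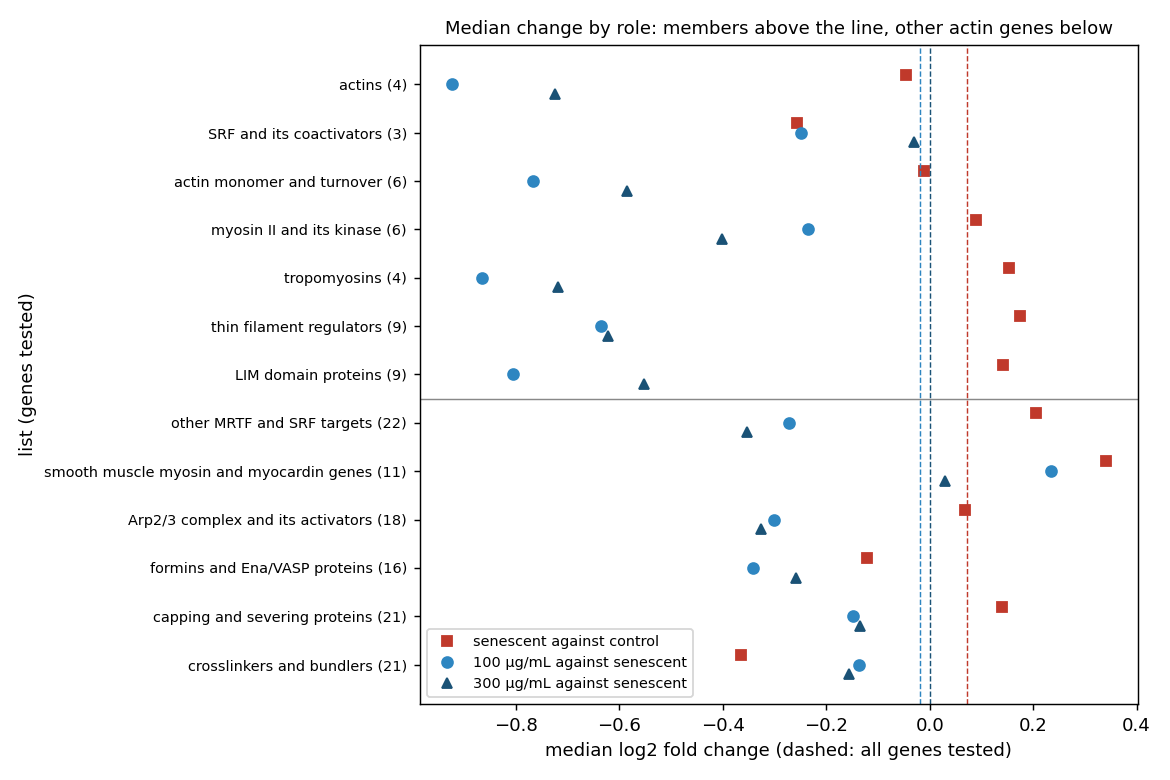
Median log2 fold change by list, for the 7 roles of the members above the line and 6 other lists of actin and SRF genes below it, with the number of genes tested in parentheses and dashed lines at the medians of all genes. At 100 µg/mL the member roles other than SRF and myosin II lie between −0.92 and −0.64, and the other lists between −0.34 and 0.23.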

How the data were processed

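RNA-Seq was analysed in 13 libraries of 12 samples. Per the labels and the study's methods, stranded total RNA was sequenced on a NovaSeq, checked with FastQC 0.12.1, trimmed with Trimmomatic, aligned with STAR 2.7.11b to GRCm39 and quantified with RSEM 1.3.1. The authors deposited per library the RSEM expected counts, which are reads divided by estimate among transcripts and are not normalized. The deposited TPM values are scaled for length and depth by RSEM. Whether the counting used strand is not given in the sources used here.

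Expected counts were rounded, and the libraries of control mouse 5 were summed. Genes passing filterByExpr (minimum count 10, minimum total 15) were fitted with edgeR 4.0.16 (R 4.3.3): TMM factors, a single quasi-likelihood fit of all 4 groups, and p-values of 15034 genes adjusted by Benjamini-Hochberg. A gene rose or fell at an adjusted p under 0.05, and log2 fold changes carry SE and 95% intervals from this fit. The authors' own test was DESeq2. DESeq2 1.42.0 and limma 3.58.1 on log2(TPM + 1) were alternatives. The script was tested on simulated data. Levels of 1 gene are CPM, and genes are compared with each other by TPM.

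All 41 members are named by role, with full statistics for the called members of smallest p (at most 8 a comparison), and SE or p are given beyond that rule for further members. Other lists name at most 3 called genes each, those with the largest change. Myocd, and Myh11 at the doses, fall outside that rule and were named after their values were seen. 1 further list is not reported here. The members and lists were chosen with earlier results of these data known. The mouse numbers come from the labels. Same-numbered samples did not in general deviate together from their group means, with a median r of −0.006 over 18 pairs of samples (−0.204 to 0.425). In 8 of the 18 pairs r was over 0.1, and the mouse as a block is an alternative. Replicates are cultures of different mice. Protein sequences were not used here.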

Additional observations from a re-analysis of the deposited data

How the results depend on the processing

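The number of members called changed with several choices. Offsets by 1-transcript share, by length, and by share, length and GC were chosen after seeing the data. Shares of all genes risen and fallen in the same fit stand in parentheses. For senescent against control MEFs 3 members were called (6.11% and 5.63%). This became 8 with DESeq2 (5.76% and 4.6%) and 5 with no filter beyond 1 count (3.72% and 3.54%). With at least 10 counts in every sample it was 6 (7.82% and 8.18%), and with only the groups compared 1 (2% and 3.58%). Keeping the libraries of control mouse 5 separate gave 5 (7.01% and 5.73%). Offsets by number of transcripts gave 5 (6.87% and 7.44%) and limma on TPM 6 (6.24% and 5.75%). The count became 6 with offsets by 1-transcript share (7.64% and 8.43%) and 8 by length (6.39% and 7.91%). By share, length and GC it was 11, 2 risen and 9 fallen (9.94% and 11%). With these and the replicate block it was 12, 3 risen and 9 fallen (9.84% and 10.7%). Leaving out control mouse 4 (3.37% and 4.14%) or senescent mouse 5 (4.94% and 5.05%) gave 1. Leaving out senescent mouse 6 gave 12 (9.19% and 8.14%), the most for any 1 mouse.

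For 100 µg/mL against senescent MEFs the 18 became 10 with an absolute log2 fold change over 1 required (1.1% and 1.6%). They became 1 with only the groups compared (0.646% and 0.535%) and 10, 2 risen and 8 fallen, with limma on TPM (2.38% and 0.852%). Leaving out 1 mouse gave 3 (treated mouse 4, 0.343% and 0.556%) to 18 (senescent mouse 4, 1.27% and 1.9%). For 300 µg/mL the 9 became 18 with DESeq2 (1.69% and 1.95%) and 16, 1 of them risen, with no filter beyond 1 count (1.41% and 1.46%). With at least 10 counts the count was 14 (1.37% and 1.89%), and with only the groups compared 1 (0.4% and 0.321%). Offsets by number of transcripts gave 14 (1.21% and 1.64%) and by 1-transcript share 17 (1.42% and 2.03%). Those by share, length and GC gave 20 (2.08% and 3.08%), and 17 with the replicate block (2.08% and 3.22%), 1 of them risen in each. Leaving out 1 mouse gave 1 (treated mouse 6, 0.116% and 0.18%) to 12 (senescent mouse 4, 0.708% and 1.07%). Against control MEFs, requiring a log2 fold change over 1 left 14 of 26 at 100 (10.3% and 9.37%) and 11 of 22 at 300 µg/mL (9.87% and 8.11%). Leaving out 1 mouse gave 16 (treated mouse 4, 8% and 9.29%) to 23 (treated mouse 6, 9.23% and 13.1%) at 100 µg/mL. At 300 µg/mL it gave 16 (as for treated mouse 6, 8.42% and 7.93%) to 21 (control mouse 4, 9.32% and 8.82%).

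With the replicate block alone, which pairs samples by mouse, the counts were 3 (5.15% and 4.98%), 16 (0.845% and 2.04%) and 6 (0.599% and 0.951%). Against control MEFs they were 25 (11.2% and 13.7%) and 22 (11.3% and 11.2%). The calls the block changed stand beside their genes. Between the doses the count was 0 under every alternative run. Allowing 1 mismatch in the CArG box moved the members with a match from 7 to 17, and all genes from 1.81% to 23.8%. Where the cause of a change is not given by the alternative itself, the cause was not tested. With 3 mice a group, a member that was not called is not shown to be unchanged.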
